A study of Mus musculus with 52 samples.

Results

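The response of cDC1 to prostaglandin E2 (PGE2) under an EP2 antagonist was set against the response under an EP4 antagonist. The comparison takes 8 of the 52 libraries of the series, 4 for each antagonist, chosen by the treatment in their labels. Cells of both groups were grown from C57BL/6 mouse bone marrow with FLT3 ligand and GM-CSF, sorted as CD103+ cDC1, and given 100 ng/ml PGE2 for 4 h. The EP2 antagonist group received PF-04418948 (5 uM) for 30 min before PGE2, and the EP4 antagonist group received L161,982 (5 uM) for 30 min before PGE2. Both groups therefore hold PGE2, and an antagonist without PGE2 was not analysed here. PGE2 alone and untreated cells at 4 h, 4 libraries each, served to find the genes that PGE2 moves. Cells given medium of BRAFV600E melanoma cells for 4 h, 4 libraries each, gave a further gene set. The melanoma cells were control cells or Ptgs1/Ptgs2-/- cells, called PGE2-deficient below. Values are also quoted from groups given PGE2 with an EP1 or an EP3 antagonist (5 uM, 30 min before PGE2), 4 libraries each. A further group of 4 libraries carries the EP2 and EP4 antagonists by its title. Its treatment label names SC-19220, given elsewhere in the labels as the EP1 antagonist, together with L161,982. Its values are quoted only as those of the group titled EP2+EP4. Each antagonist was used at 1 dose and 1 time on cells grown in culture. The replicate letters of the labels are not tied to animals or cultures, so the p-values speak only for the spread among the libraries as they are, part of which may be technical.

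PGE2 acts through the G protein-coupled receptors EP1 to EP4. EP2 and EP4 both couple to Gs and raise cyclic AMP, which activates protein kinase A and the transcription factor CREB, while EP3 couples mainly to Gi, which lowers cyclic AMP. cDC1 are the dendritic cells that cross-present antigen to CD8+ T cells, depend on the transcription factors Irf8 and Batf3, and are a source of IL-12.

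Transcripts were counted by unique molecular identifiers at their 3' ends in bulk, so that fewer cells of a type and less RNA per cell cannot be told apart. The EP2 antagonist libraries held 262600 to 375508 counts, and the EP4 antagonist libraries 42666 to 320979. Library A of the EP4 antagonist was the shallowest of the series, and the other 3 EP4 antagonist libraries held at least 193641 counts. In that library 1 count equals 23.85 CPM, the usual unit of counts relative to the scaled library size, and a count of 0 allows up to 71.56 CPM, for counting error only, so its values for genes below about that level are coarse. Library A of the untreated cells, which help to set the genes that PGE2 moves, was shallow too, at 54107 counts. There 1 count equals 17.46 CPM, and a count of 0 allows up to 52.37 CPM. Libraries B of the EP3 antagonist group and of the group given medium of PGE2-deficient melanoma cells stood apart from their groups. Neither enters the comparison, but both enter the spread that all 36 libraries at 4 h share, and counts of genes are given with and without them.

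The cells carried the markers of their label. All 10 genes of a short cDC1 marker set were detected in all 8 libraries, with Irf8 at 3503, 3563, 3152 and 3389 CPM in the EP2 antagonist libraries, against 2982, 2915, 2702 and 2732 CPM in the EP4 antagonist libraries. The others were Batf3, Xcr1, Clec9a, Itgae, Cd24a, Naaa, Wdfy4, Cadm1 and Flt3. Of markers of other cells that the culture or gate could hold, granulocyte genes summed to 0 to 9.587 CPM under the EP2 antagonist and 0 to 8.39 CPM under the EP4 antagonist. The macrophage and monocyte list, which was mostly Lyz2, summed to 1338 to 1529 CPM under the EP2 antagonist and 1025 to 1347 CPM under the EP4 antagonist, while its members Adgre1, C1qa, C1qb, C1qc and Apoe averaged under 3 CPM in both groups. Its other tested members averaged, under the EP2 antagonist and then the EP4 antagonist, 271 and 243 CPM for Csf1r, 84.5 and 57.4 CPM for Cd68, and 17.8 and 32.8 CPM for Ccr2, while Cd14, too low to test, averaged 2.43 and 10.2 CPM. The plasmacytoid dendritic cell list summed to 147 to 215.1 CPM under the EP2 antagonist and 155.2 to 310.1 CPM under the EP4 antagonist, and its defining marker Siglech averaged 1.03 CPM under the EP2 antagonist and 1.05 CPM under the EP4 antagonist. The lymphocyte list, nearly all Ighm, summed to 226 to 295.1 CPM under the EP2 antagonist and 254.9 to 357.8 CPM under the EP4 antagonist. The cDC2 list summed to 41.36 to 79.08 CPM under the EP2 antagonist and 33.98 to 105.3 CPM under the EP4 antagonist. No gene of the 5 lists for other cells passed the test between the antagonists, and the part of such cells in the results was not tested.

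Only Hmox1 passed the test between the antagonists. It encodes haem oxygenase 1, the inducible enzyme that breaks down haem, and lies at chr8:75093621-75100589 on the plus strand of GRCm38. Hmox1 had 28.95, 51.1, 45.2 and 44.1 CPM in the EP2 antagonist libraries, against 143, 117, 129 and 116 CPM in the EP4 antagonist libraries, libraries A to D in order here and below. Every EP2 antagonist library was below every EP4 antagonist library, and the counts behind the values were 7, 16, 12 and 16 under the EP2 antagonist and 6, 28, 38 and 21 under the EP4 antagonist. The log2 fold change of the EP2 antagonist over the EP4 antagonist was -1.51 ± 0.32 (SE, 95% interval -2.15 to -0.88; adjusted p = 0.0307, edgeR quasi-likelihood test with Benjamini-Hochberg adjustment). PGE2 alone gave 59.8 ± 24.9 CPM and untreated cells 35.4 ± 13.3 CPM (SD, n = 4 each), so the EP4 antagonist libraries were the high ones among these 4 groups. The call did not hold when any 1 of the 8 libraries was left out: the fold change then kept its sign, and no gene passed.

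In all, 1 of 5754 genes tested (0.0174%) passed at an adjusted p of 0.05, and 0 were higher under the EP2 antagonist. At an unadjusted p under 0.05 there were 357 genes (6.2%), of which 176 (3.06%) were higher and 181 (3.15%) lower. DESeq2 called 0 genes, and limma voom with sample weights called 3, all lower, Hmox1 and Ramp3 among them. In an alternative that was not planned, without the EP3 antagonist and PGE2-deficient medium libraries that stood apart, 5 genes passed, Hmox1, Ramp3, Ctla2a and Il1b lower and 1 higher. With only the 8 libraries of the comparison in the fit, 9 of 4037 genes passed, 8 lower, among them Ctla2a, Fth1, Gclm, Hmox1, Il1b, Ramp3 and Scin, and 1 higher. Genes other than Hmox1 are therefore given below by their values, intervals and overlap.

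Most genes that PGE2 raised had lower estimates under the EP2 antagonist than under the EP4 antagonist, and most genes that it lowered had higher ones. PGE2 raised 300 genes (5.21%) and lowered 193 (3.35%) against untreated cells, 493 in all (8.57%; 156, or 2.71%, with a log2 change of at least 1.5), a contrast that shares no library with the one between the antagonists. Of the 300 raised genes, 235 (78.3%) had a lower estimate under the EP2 antagonist, against 47.8% of all genes tested, with a median log2 fold change of -0.19 against 0.02 over all genes tested. Of the 193 lowered genes, 147 (76.2%) had a higher estimate, against 52.2% of all, with a median of 0.22. None of these 493 genes passed the adjusted test on its own.

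Every EP2 antagonist library was below every EP4 antagonist library for 33 of the 300 raised genes (11%), against 93 of all 5754 (1.62%), and above for 1, Tbc1d14. For the 193 lowered genes the EP2 antagonist libraries were all above for 18 (9.33%), against 105 of all (1.82%), and all below for 1, Cd36. Without the shallow EP4 antagonist library A, these counts became 51 of the raised and 30 of the lowered genes, beside 203 (3.53%) below and 196 (3.41%) above over all genes. Genes chosen on other libraries, 1 of which stood apart from its group, gave a like picture: of 140 genes higher with medium of control melanoma cells than with medium of PGE2-deficient cells, 114 (81.4%) had a lower estimate under the EP2 antagonist, with a median of -0.23, and of the 87 lower ones, 66 (75.9%) had a higher estimate, with a median of 0.22. How many of these genes are among the 300 and 193 above is not given, and the same 8 libraries are read, so this is not separate evidence.

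**Figure D1:**
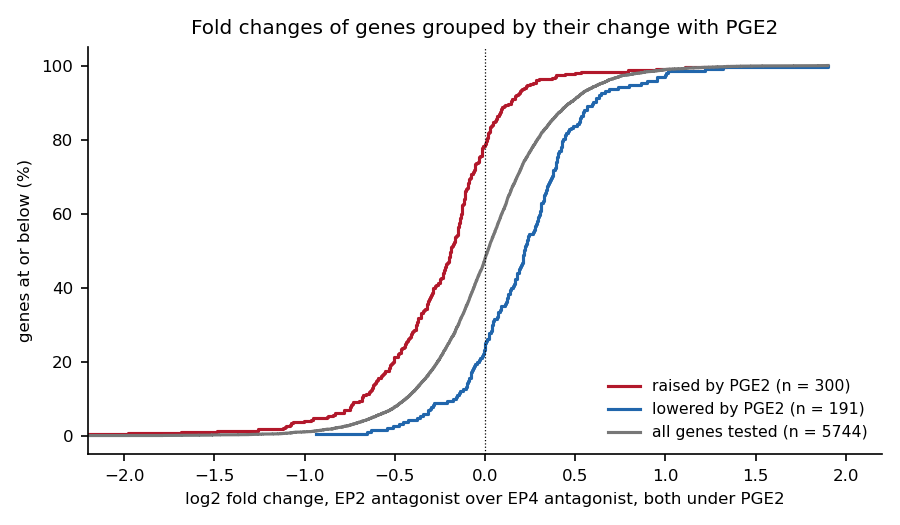
Cumulative share of genes (percent, y axis) by log2 fold change of the EP2 antagonist over the EP4 antagonist under PGE2 (x axis), for genes raised by PGE2, genes lowered by PGE2 and all genes tested. The curve of the raised genes lies left of that of all genes and the curve of the lowered genes right of it, with medians of -0.19, 0.22 and 0.02; 10 tested genes whose symbols had been turned into dates are not drawn, and 1 gene lies outside the axis.

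The shift showed in every library of the comparison with a score over the 493 genes, the mean log2 CPM of raised minus lowered genes, scaled so that untreated cells average 0% and PGE2 alone 100%. The score was 64.3, 61.7, 66.6 and 67.5% under the EP2 antagonist, against 84.6, 80.5, 85.1 and 81.4% under the EP4 antagonist. The 2 groups did not overlap, with PGE2 alone at 97.5 to 103% and untreated cells at -2.15 to 1.48%. The genes and both ends of the scale were set on those PGE2 and untreated libraries, so a place between them is expected of other libraries and is not a result. The mean score of the EP2 antagonist minus that of the EP4 antagonist was -17.89 points, with a pooled SD of 2.44 points, a description given without a p. The shallow EP4 antagonist library A, at 84.6%, lay among the other 3 of its group. The group titled EP2+EP4 scored 21.8 to 28.1%, and the EP1 antagonist group 92.4 to 94.98%. Libraries A, C and D of the EP3 antagonist group scored 88.8, 90.4 and 92.1%, and its library B, which stood apart, 48.8%.

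**Figure D2:**
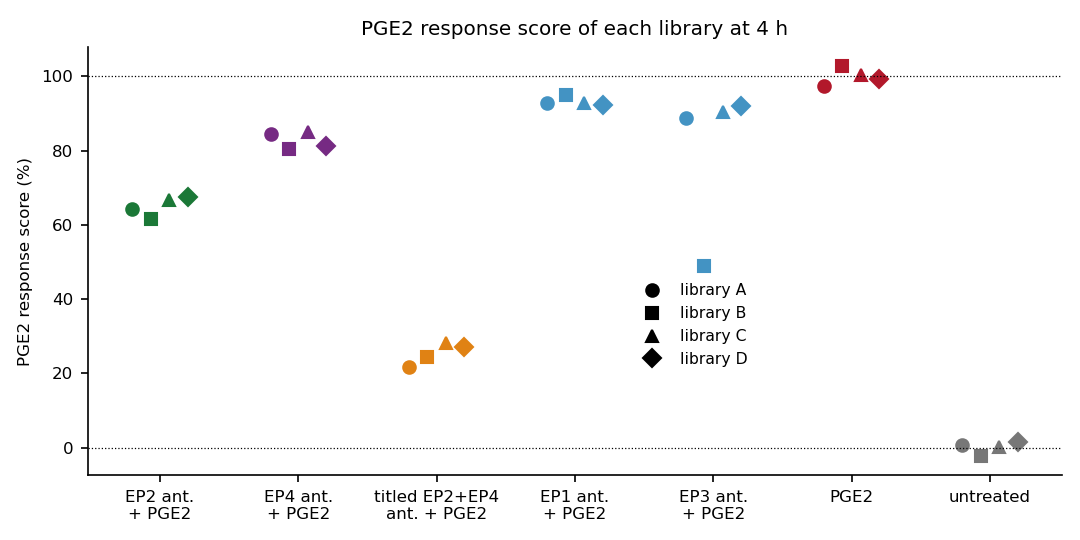
PGE2 response score (percent, y axis) of each library at 4 h in 7 groups (x axis); each symbol is 1 library, and the dotted lines mark the averages of untreated cells (0) and PGE2 alone (100). The 4 EP2 antagonist libraries, at 61.7 to 67.5%, lie below the 4 EP4 antagonist libraries, at 80.5 to 85.1%; library B of the EP3 antagonist, at 48.8%, stands apart from its group.

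Among genes that PGE2 raised, Ramp3, a single-pass protein that partners receptors of the calcitonin family, lay wide apart between the antagonists. Ramp3 had 78.6, 73.5, 86.6 and 99.3 CPM in the EP2 antagonist libraries, against 310.1, 331, 336 and 355 CPM in the EP4 antagonist libraries. The groups did not overlap, the EP4 antagonist libraries nearer to PGE2 alone (422 ± 29.9 CPM) and the EP2 antagonist libraries nearer to untreated cells (39.2 ± 33.3 CPM). The log2 fold change was -1.98 ± 0.44 (SE, 95% interval -2.88 to -1.08), with an adjusted p of 0.196 in the edgeR quasi-likelihood test.

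Sdcbp2, a PDZ-domain adaptor also called syntenin-2, had 20.7, 15.98, 18.8 and 19.3 CPM in the EP2 antagonist libraries, against 95.4, 71.3, 47.6 and 55.4 CPM in the EP4 antagonist libraries. It averaged 78.9 CPM with PGE2 alone and had no count in any untreated library, and the antagonist groups did not overlap. Its log2 fold change between them was -1.68 ± 0.45 (adjusted p = 0.218, edgeR). Ctla2a, which encodes an inhibitor of cysteine proteases, had 78.6, 76.7, 60.3 and 102 CPM in the EP2 antagonist libraries, against 191, 231, 156 and 199 CPM in the EP4 antagonist libraries. Here too no library of one group reached the other, with a log2 fold change of -1.26 ± 0.38. Scin, which encodes the actin-severing protein scinderin, had 149, 239.7, 207 and 325 CPM in the EP2 antagonist libraries, against 477, 378, 370.4 and 421 CPM in the EP4 antagonist libraries, again without overlap.

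Il1b, the gene of the inflammatory cytokine interleukin 1 beta, had 28.95, 31.96, 45.2 and 22.1 CPM in the EP2 antagonist libraries, against 23.9, 138, 67.97 and 77.6 CPM in the EP4 antagonist libraries. The groups overlapped through the shallow library A of the EP4 antagonist, where 23.9 CPM is 1 count, and the other 3 EP4 antagonist libraries were above all EP2 antagonist libraries. The log2 fold change was -1.48 ± 0.36 (adjusted p = 0.149, edgeR). With libraries A and C of the EP4 antagonist left out, an alternative that was not planned, Il1b was the 1 gene that passed.

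**Figure D3:**
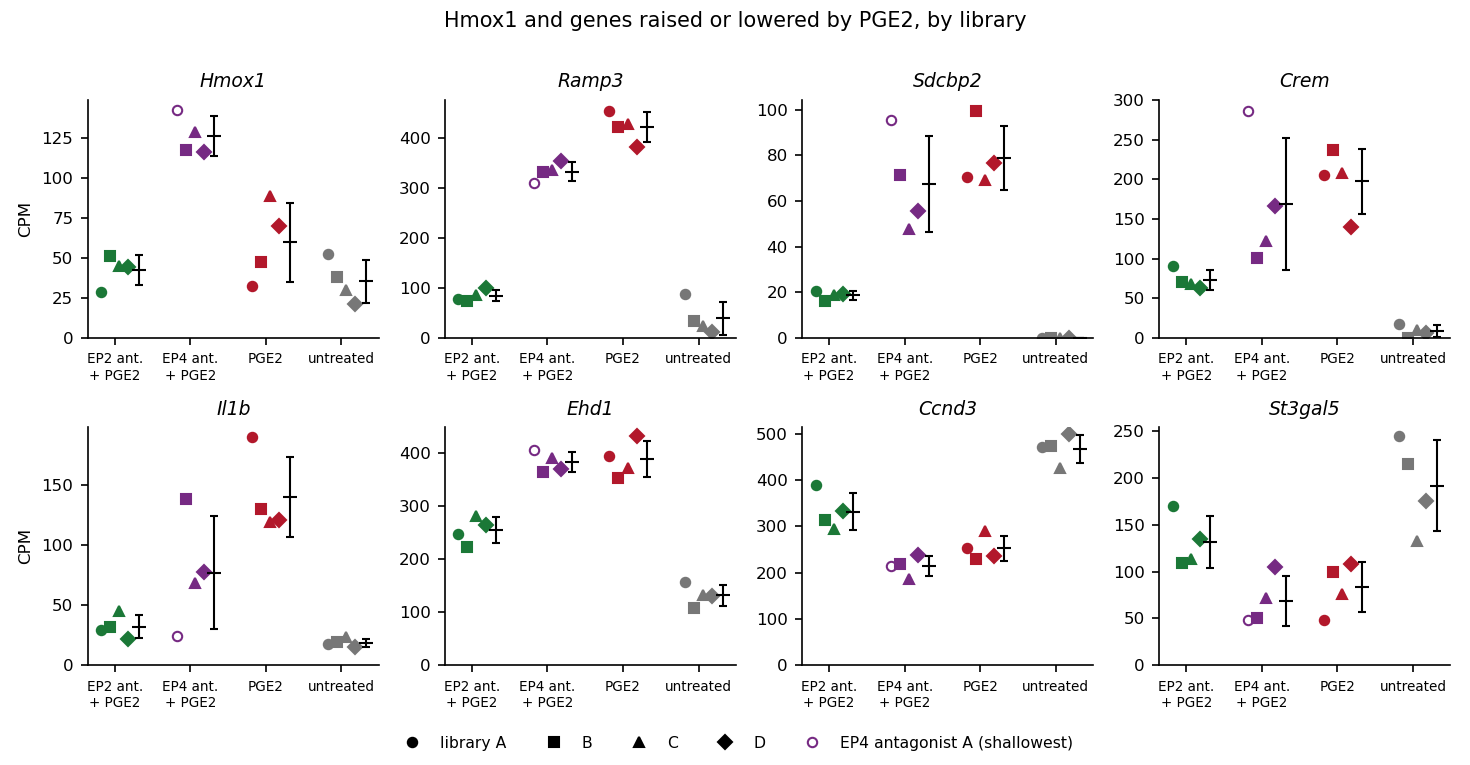
Levels (CPM, y axis, each starting at 0) of 8 genes by library under the EP2 antagonist with PGE2, the EP4 antagonist with PGE2, PGE2 alone and no treatment (x axis); symbols are single libraries, the open circle is the shallowest library, and bars are mean and SD of 4. Hmox1 is highest under the EP4 antagonist, Ramp3 and Sdcbp2 are lower under the EP2 antagonist than under the EP4 antagonist without overlap, and Ccnd3 and St3gal5, which PGE2 lowers, are higher under it.

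Targets of cyclic AMP and CREB had mostly lower estimates under the EP2 antagonist: 9 of the 10 tested, with a median of -0.49, none past the adjusted test. Most of the 10 were among the genes PGE2 raised, of which 78.3% had a lower estimate, against 47.8% of all genes tested. Crem is a gene that CREB itself induces. It had 91, 70.3, 67.8 and 63.4 CPM in the EP2 antagonist libraries, against 286, 101, 122 and 166 CPM in the EP4 antagonist libraries. The groups did not overlap, with a log2 fold change of -0.95 ± 0.43 (adjusted p = 0.769, edgeR), and untreated cells had 8.36 CPM. Pde4b, a phosphodiesterase that degrades cyclic AMP, had 95.1, 70.3, 117 and 68.9 CPM in the EP2 antagonist libraries, against 95.4, 176, 143 and 127 CPM in the EP4 antagonist libraries. The highest EP2 antagonist library passed the lowest EP4 antagonist library, and the log2 fold change was -0.75 ± 0.26. Nr4a2, an orphan nuclear receptor induced early by cyclic AMP, had 53.8, 15.98, 30.1 and 19.3 CPM in the EP2 antagonist libraries, against 23.9, 50.3, 95.2 and 38.8 CPM in the EP4 antagonist libraries, with overlap and a log2 fold change of -1.08 ± 0.43. Genes of the G protein, cyclic AMP and arrestin machinery itself were split, 9 of 19 with a higher and 10 with a lower estimate and a median of -0.06.

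The receptors were low. Ptger2, which encodes EP2, had 41.4, 51.1, 33.9 and 22.1 CPM in the EP2 antagonist libraries, against 71.6, 46.1, 64.6 and 49.9 CPM in the EP4 antagonist libraries. These overlapped, with a log2 fold change of -0.60 ± 0.40 (95% interval -1.38 to 0.19; adjusted p = 0.907, edgeR), so a change in either direction was not resolved. Ptger4, which encodes EP4, was too low to test, at 8.27, 9.59, 26.4 and 8.27 CPM in the EP2 antagonist libraries, against 0, 0, 3.40 and 11.1 CPM in the EP4 antagonist libraries. It averaged 7.30 CPM with PGE2 alone and 40.9 CPM in untreated cells, and no order between the antagonists is read from so few counts. Ptger3, which encodes EP3 and was among the genes lowered by PGE2, had 70.3, 51.1, 64.02 and 74.5 CPM in the EP2 antagonist libraries, against 23.9, 41.9, 16.99 and 44.3 CPM in the EP4 antagonist libraries. Every EP2 antagonist library was above every EP4 antagonist library, with a log2 fold change of 1.01 ± 0.37 (adjusted p = 0.714, edgeR).

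Several other raised genes showed the same order without overlap. Map3k14, the NF-kappa-B-inducing kinase, had 45.5, 44.7, 60.3 and 46.9 CPM in the EP2 antagonist libraries, against 143, 105, 98.6 and 105 CPM in the EP4 antagonist libraries. Ehd1, a protein of endosome recycling, had 248, 224, 282 and 265 CPM in the EP2 antagonist libraries, against 405, 365, 391 and 371 CPM in the EP4 antagonist libraries. The log2 fold changes were -1.10 ± 0.31 for Map3k14 and -0.57 ± 0.16 for Ehd1, and the EP4 antagonist libraries lay about at the level of PGE2 alone, 105 CPM for Map3k14 and 389 CPM for Ehd1. Cxcl16, a membrane-bound chemokine that binds Cxcr6, had 385, 412, 452 and 444 CPM in the EP2 antagonist libraries, against 811, 545, 605 and 515 CPM in the EP4 antagonist libraries. It too did not overlap, with a log2 fold change of -0.46 ± 0.15. A list of myeloid receptors and genes that PGE2 induces was written from earlier results of these data and so is no independent evidence. It had a lower estimate in 15 of 16 tested members and a median of -0.45, against 47.8% of all genes and 78.3% of the raised genes with a lower estimate. Of the 16, 6 had every EP2 antagonist library below, against 1.62% of all genes and 11% of the raised genes.

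Other genes that PGE2 raised strongly had estimates nearer to 0. Plet1, a surface protein raised by PGE2, had 4881, 3931, 4289 and 5334 CPM in the EP2 antagonist libraries, against 4269.6, 5776, 5278 and 5597 CPM in the EP4 antagonist libraries. The groups overlapped, with a log2 fold change of -0.20 ± 0.23 (95% interval -0.66 to 0.27). Ifitm1, an interferon-inducible membrane protein, had 5009, 5222, 5208 and 4898 CPM in the EP2 antagonist libraries, against 4914, 5394, 5389.8 and 6139.9 CPM in the EP4 antagonist libraries, with a log2 fold change of -0.11 ± 0.11 (95% interval -0.33 to 0.11). Ifitm2 and Ifitm3 had log2 fold changes of -0.30 ± 0.13 and -0.30 ± 0.20, with overlap, and reads of these near-identical genes may have been split between them. Ccl17, a chemokine that attracts Ccr4-bearing T cells, had 1179, 1390.1, 1408 and 1029 CPM in the EP2 antagonist libraries, against 1121, 1187, 1353 and 820.1 CPM in the EP4 antagonist libraries, and its log2 fold change was 0.15 ± 0.13 (95% interval -0.12 to 0.41). For Plet1, at 1209 CPM in untreated cells and 6295 CPM with PGE2 alone, the interval leaves out a change of the size estimated for Ramp3 or Sdcbp2. Ifitm1 had 1993 CPM in untreated cells and 6283 CPM with PGE2 alone, and Ccl17 451 and 1083 CPM. Even a full return to untreated levels would be a smaller log2 change in these genes than the estimates for Ramp3 and Sdcbp2. Their intervals are therefore not set beside those estimates.

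A group of genes of haem, iron and thiol redox handling was looked at because Hmox1 was the gene called, so the list was written after its values were seen and its counts are a description. All 15 tested members, Hmox1 itself included, had a lower estimate under the EP2 antagonist, with a median of -0.51. The share was 47.8% of all genes and 78.3% of the raised genes, to which most members belonged. Of the 15, 7, Hmox1 again included, had every EP2 antagonist library below every EP4 antagonist library, against 1.62% of all genes and 11% of the raised genes. Txnrd1, thioredoxin reductase, had 269, 189, 211 and 218 CPM in the EP2 antagonist libraries, against 358, 336, 347 and 277 CPM in the EP4 antagonist libraries. Nqo1, a quinone reductase, had 28.95, 28.8, 64.02 and 49.6 CPM in the EP2 antagonist libraries, against 95.4, 67.1, 74.8 and 94.2 CPM in the EP4 antagonist libraries. Prdx1, a peroxiredoxin, had 1526, 1422, 1363 and 1393 CPM in the EP2 antagonist libraries, against 1789, 1665, 1818 and 1967 CPM in the EP4 antagonist libraries. In these 3 genes the EP2 antagonist libraries lay below throughout, with log2 fold changes of -0.57 ± 0.19 for Txnrd1, -0.87 ± 0.34 for Nqo1 and -0.34 ± 0.16 for Prdx1.

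Fth1, the ferritin heavy chain and one of the most abundant transcripts of these cells, had 33649, 29956, 30858 and 29773 CPM in the EP2 antagonist libraries, against 41026, 42049, 39547 and 42725 CPM in the EP4 antagonist libraries. Its log2 fold change was -0.41 ± 0.19 (adjusted p = 0.78, edgeR), and PGE2 had raised it to 45037 CPM against 12399 CPM in untreated cells. Ftl1, the ferritin light chain, had 165, 185, 166 and 143 CPM in the EP2 antagonist libraries, against 215, 214, 279 and 205 CPM in the EP4 antagonist libraries, and its pseudogene Ftl1-ps1 may share its reads. Srxn1, sulfiredoxin, had 62.04, 31.96, 56.5 and 41.4 CPM in the EP2 antagonist libraries, against 95.4, 75.5, 81.6 and 83.1 CPM in the EP4 antagonist libraries. For both, every EP2 antagonist library lay below every EP4 antagonist library, with log2 fold changes of -0.51 ± 0.21 for Ftl1 and -0.78 ± 0.35 for Srxn1. Gclm, a subunit of the enzyme that makes the glutathione precursor, had 443, 492, 565 and 477 CPM in the EP2 antagonist libraries, against 477, 629, 792 and 826 CPM in the EP4 antagonist libraries, with overlap at the shallow library A. Txnrd1, Nqo1, Prdx1, Fth1, Ftl1, Srxn1 and Gclm, unlike Hmox1, were all among the genes PGE2 raised. Their log2 estimates for the EP4 antagonist over PGE2 alone lay between -0.12 for Fth1 and 0.12 for Gclm. Gpx1, a glutathione peroxidase that the list did not hold, went the other way, at 1530.4, 1432, 1435 and 1451 CPM in the EP2 antagonist libraries, against 978, 1279, 1070.5 and 1164 CPM in the EP4 antagonist libraries.

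**Figure D4:**
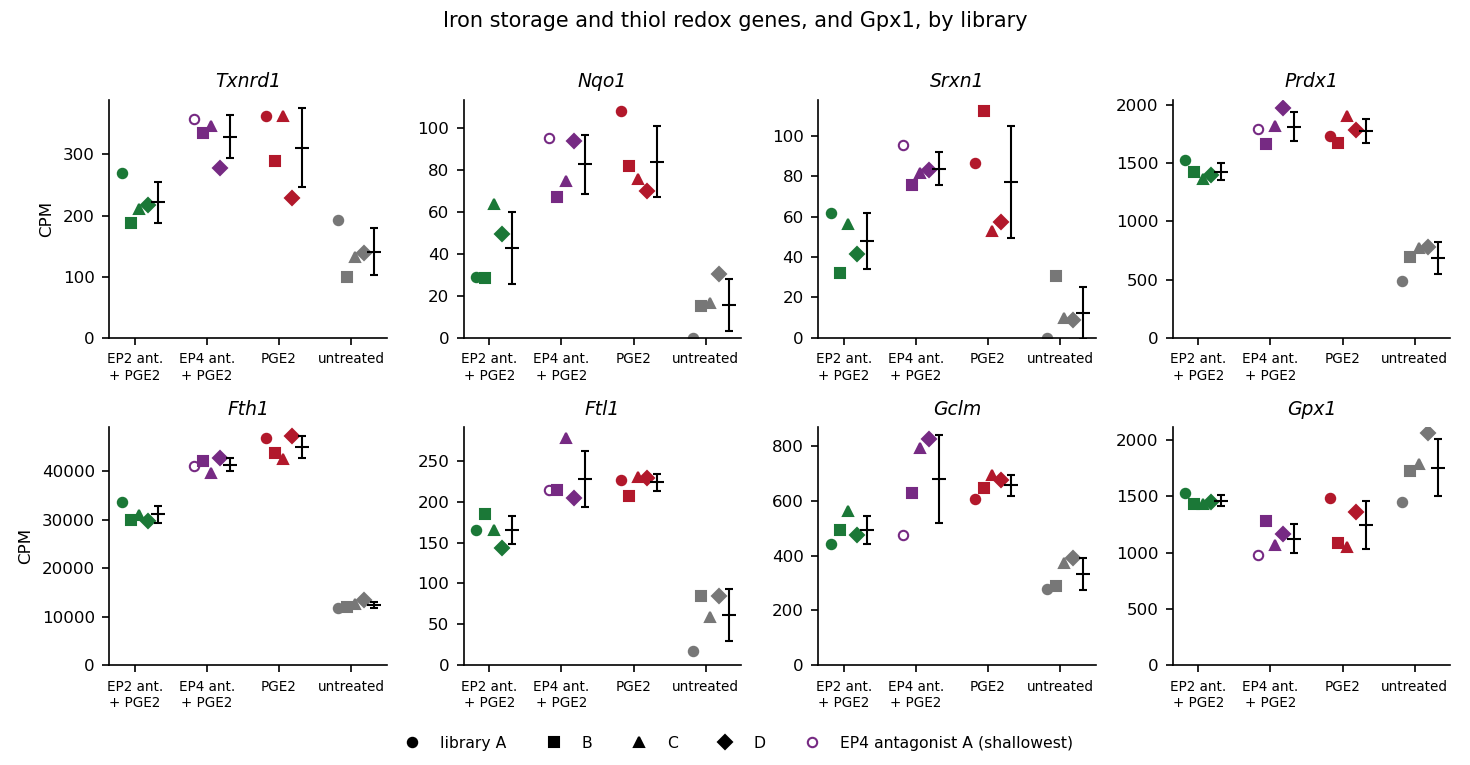
Levels (CPM, y axis, each starting at 0) of 7 iron storage and thiol redox genes and Gpx1 by library under the EP2 antagonist with PGE2, the EP4 antagonist with PGE2, PGE2 alone and no treatment (x axis); symbols are single libraries, the open circle is the shallowest library, and bars are mean and SD of 4. In Txnrd1, Nqo1, Srxn1, Prdx1, Fth1 and Ftl1 every EP2 antagonist library lies below every EP4 antagonist library, Gclm overlaps, and Gpx1, which PGE2 lowers, is higher under the EP2 antagonist.

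The 250 bases before the annotated starts were searched on both strands for 3 motifs, in the RefSeq promoter table of GRCm38.p6, which held 25 of the 33 raised genes with every EP2 antagonist library below. TGACG, the core of the CREB site, was in 8 of these 25 genes (32%), against 33.7% of 4404 tested genes matched and 19.8% of all 27025 genes in the table. The full site TGACGTCA, which contains TGACG, was in 0 of the 25, against 3.34% of the tested genes. TGACNNNGC, the core of the antioxidant response element, which can overlap TGACG, was in 4 of 12 redox genes matched (33.3%), in 6 of the 25 raised genes (24%) and in 5 of 12 matched genes on the opposite side (41.7%), those lowered by PGE2 with every EP2 antagonist library above, against 14% of the tested genes. Of these 3 sets the share was highest in the lowered genes. A match is a description of the letters and not a site in use. The stretches of Txnrd1 and Prdx1 are shown as redox genes with TGACNNNGC, and that of Nr4a2 for its several TGACG matches, although its groups overlap and it is not one of the 25; matches on either strand are in capitals.
Nr4a2 (chr2:57124070-57124243, - strand): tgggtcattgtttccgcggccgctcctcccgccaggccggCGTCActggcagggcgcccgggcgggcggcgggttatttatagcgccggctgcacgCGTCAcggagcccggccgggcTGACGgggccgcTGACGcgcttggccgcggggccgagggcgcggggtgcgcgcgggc
Txnrd1 (chr10:82859074-82859162, + strand): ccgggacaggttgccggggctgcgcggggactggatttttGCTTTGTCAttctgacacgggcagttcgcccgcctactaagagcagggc
Prdx1 (chr4:116685426-116685514, + strand): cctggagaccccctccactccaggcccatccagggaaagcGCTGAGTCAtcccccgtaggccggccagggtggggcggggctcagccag

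On the side of genes that PGE2 lowers, Ccnd3, cyclin D3, had 389, 313, 294 and 334 CPM in the EP2 antagonist libraries, against 215, 218, 187 and 238 CPM in the EP4 antagonist libraries. All EP2 antagonist libraries were above all EP4 antagonist libraries, which lay around PGE2 alone (252 ± 27.4 CPM), while untreated cells had 468 ± 30.5 CPM, with a log2 fold change of 0.64 ± 0.17 (adjusted p = 0.218, edgeR). St3gal5, which makes the ganglioside GM3, had 169.6, 109, 113 and 135 CPM in the EP2 antagonist libraries, against 47.7, 50.3, 71.4 and 105 CPM in the EP4 antagonist libraries, and its log2 fold change was 0.86 ± 0.27. Npm1, Pycard, Ccnd1 and H2-DMb1 were also among the 18 lowered genes with every EP2 antagonist library above, with estimates between 0.22 for H2-DMb1 and 0.44 for Npm1.

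Genes of cDC1 identity, many of which PGE2 lowers, had a higher estimate under the EP2 antagonist in 14 of 20 tested members, with a median of 0.35, none past the adjusted test. That is 70%, against 52.2% of all genes tested and 76.2% of the genes PGE2 lowered. Irf8, whose values are given above, did not overlap between the groups and had a log2 fold change of 0.27 ± 0.11 (adjusted p = 0.738, edgeR). Naaa, an acid amidase typical of cDC1, had 885, 796, 700.5 and 838 CPM in the EP2 antagonist libraries, against 596, 667, 673 and 477 CPM in the EP4 antagonist libraries, also without overlap. Wdfy4, which is needed for cross-presentation, had 285, 352, 298 and 212 CPM in the EP2 antagonist libraries, against 239, 209.7, 146 and 161 CPM in the EP4 antagonist libraries, with overlap and a log2 fold change of 0.69 ± 0.21. These 2 genes were mostly higher under the EP2 antagonist, and neither passed the adjusted test. Batf3 had 132, 79.9, 94.1 and 119 CPM in the EP2 antagonist libraries, against 95.4, 46.1, 64.6 and 99.7 CPM in the EP4 antagonist libraries, with overlap and a log2 fold change of 0.60 ± 0.28. Xcr1, the receptor of the chemokine Xcl1, had 277, 137, 151 and 141 CPM in the EP2 antagonist libraries, against 167, 122, 149.5 and 83.1 CPM in the EP4 antagonist libraries, with 1 EP2 antagonist library high. Clec9a, a receptor for dead cells, had 16.5, 25.6, 75.3 and 19.3 CPM in the EP2 antagonist libraries, against 47.7, 46.1, 40.8 and 38.8 CPM in the EP4 antagonist libraries. Both overlapped, with log2 fold changes of 0.46 ± 0.28 for Xcr1 and -0.34 ± 0.43 for Clec9a. Cd36, a scavenger receptor in the same list, was the 1 lowered gene with every EP2 antagonist library below, at 57.9, 60.7, 64.02 and 63.4 CPM in the EP2 antagonist libraries, against 119, 109, 64.6 and 66.5 CPM in the EP4 antagonist libraries.

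A set of maturation and cytokine genes was high in libraries A and C of the EP4 antagonist and not in B and D. Il12b, the p40 chain of IL-12, had 28.95, 63.9, 64.02 and 85.5 CPM in the EP2 antagonist libraries, against 525, 75.5, 339.8 and 72.04 CPM in the EP4 antagonist libraries. The 2 high libraries set the group apart, while B and D lay within the range of the EP2 antagonist. Ccr7, the receptor that guides dendritic cells to lymph nodes, had 103, 141, 128 and 108 CPM in the EP2 antagonist libraries, against 549, 143, 265 and 155 CPM in the EP4 antagonist libraries, and its log2 fold change was -0.89 ± 0.25 (adjusted p = 0.358, edgeR). Its libraries did not overlap, with B close to the highest EP2 antagonist library. Ccl5, a chemokine for T cells, had 910.0, 1067, 1058 and 1316 CPM in the EP2 antagonist libraries, against 5462, 1069.7, 1781 and 919.9 CPM in the EP4 antagonist libraries. Ccl22, a ligand of Ccr4, had 190.3, 195, 166 and 190.3 CPM in the EP2 antagonist libraries, against 572, 168, 296 and 199 CPM in the EP4 antagonist libraries. Without libraries A and C the estimates of Ccl5, Ccl22 and Irf7 changed sign, to 0.12, 0.02 and 0.08, where they had been -0.84 ± 0.33, -0.46 ± 0.21 and -1.11 ± 0.47 (SE) with all libraries. Cd83, a maturation marker raised by PGE2, had 203, 173, 298 and 188 CPM in the EP2 antagonist libraries, against 596, 302, 339.8 and 166 CPM in the EP4 antagonist libraries, and its log2 fold change was -0.52 ± 0.20 with overlap.

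**Figure D5:**
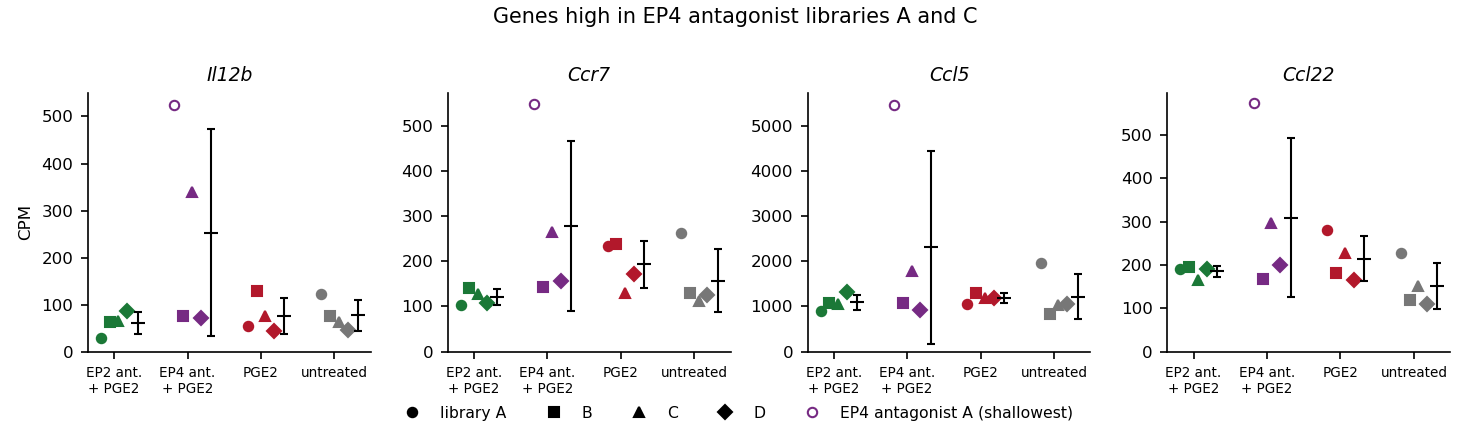
Levels (CPM, y axis, each starting at 0) of Il12b, Ccr7, Ccl5 and Ccl22 by library under the EP2 antagonist with PGE2, the EP4 antagonist with PGE2, PGE2 alone and no treatment (x axis); symbols are single libraries, the open circle is the shallowest library, and bars are mean and SD of 4. In each gene libraries A and C of the EP4 antagonist lie above the other libraries of the antagonist groups, and B and D lie close to the EP2 antagonist libraries.

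The lists that hold these genes follow. The maturation and costimulation list had a lower estimate under the EP2 antagonist in 8 of 10 tested genes (median -0.46), the cytokine and chemokine list in 8 of 12 (median -0.46), and the NF-kappa-B target list in 15 of 19 (median -0.30), none past the adjusted test. Over all genes tested 47.8% had a lower estimate, and over the genes PGE2 raised 78.3%. Traf1, a signalling adaptor of TNF receptors in the last list, had 95.1, 86.3, 97.9 and 74.5 CPM in the EP2 antagonist libraries, against 262, 96.5, 201 and 94.2 CPM in the EP4 antagonist libraries, again high in A and C. The summed level of the cytokine list was 3003 to 3555 CPM in the EP2 antagonist libraries and 2887 to 9279 CPM in the EP4 antagonist libraries. Whether a difference in activation between these libraries, apart from the antagonist, had a part in those lists was not tested.

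Over all genes tested, 52.2% had a higher estimate under the EP2 antagonist, the share to set beside the lists that follow. MHC class II genes had a higher estimate in 8 of 12, with a median of 0.01, and no gene past the adjusted test. The chains of the presenting molecules themselves, H2-Aa, H2-Ab1 and H2-Eb1, had estimates between 0.00 and 0.02, while Ciita, the transactivator of the class II genes, had 277, 368, 384 and 314 CPM in the EP2 antagonist libraries, against 191, 252, 238 and 266 CPM in the EP4 antagonist libraries. H2-DMb2, a chain of the peptide-loading protein H2-DM, had 174, 182, 185 and 138 CPM in the EP2 antagonist libraries, against 47.7, 134, 105 and 122 CPM in the EP4 antagonist libraries. Neither overlapped, with log2 fold changes of 0.45 ± 0.17 for Ciita and 0.56 ± 0.23 for H2-DMb2. In cholesterol synthesis 10 of 15 genes had a higher estimate (median 0.16), led by Msmo1, a sterol demethylase, at 49.6, 35.2, 45.2 and 77.2 CPM in the EP2 antagonist libraries, against 23.9, 20.97, 16.99 and 33.2 CPM in the EP4 antagonist libraries. In glycolysis and hypoxia 7 of 15 had a higher estimate (median -0.02). Of that list 2 genes did not overlap, with the EP2 antagonist above in 1 (6.67%) and below in 1 (6.67%). Over all genes tested the shares were 1.82% above and 1.62% below. Hk2, hexokinase 2, had 24.8, 15.98, 22.6 and 13.8 CPM in the EP2 antagonist libraries, against 71.6, 37.8, 37.4 and 27.7 CPM in the EP4 antagonist libraries, with a log2 fold change of -0.98 ± 0.47. Pfkl, the liver-type phosphofructokinase, was at 53.8, 28.8, 67.8 and 49.6 CPM in the EP2 antagonist libraries, against 23.9, 12.6, 10.2 and 16.6 CPM in the EP4 antagonist libraries, with a log2 fold change of 1.85 ± 0.50 (adjusted p = 0.218, edgeR). MHC class I, apoptosis, proliferation, interferon-stimulated and heat shock lists held no gene past the adjusted test, with medians of 0.12, -0.06, -0.04, -0.26 and 0.04. EP4 antagonist library A stood apart in 2 of them: the interferon list summed to 790.8 to 1012 CPM under the EP2 antagonist, against 2385 CPM in A and 717.3 to 992.3 CPM in B to D under the EP4 antagonist. The proliferation list summed to 3668 to 3966 CPM under the EP2 antagonist, against 2528 CPM in A and 3823 to 4250 CPM in B to D under the EP4 antagonist, and the part of this library in the medians was not tested.

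Each antagonist was also set against PGE2 alone. These 2 contrasts share the PGE2 libraries, so their values are given side by side and not as separate evidence. Under the EP2 antagonist 24 genes (0.417%) passed, 5 higher (0.0869%) and 19 lower (0.33%) than with PGE2 alone, and under the EP4 antagonist 2 (0.0348%), Btg1 lower and Arpp19 higher. The counts are not a test of the difference between the antagonists, and they rest on single libraries. The 24 became 15, 13 and 7 without EP2 antagonist A, B and D, and 9, 7 and 15 without PGE2 A, B and C, and it was 82 with only those 2 groups in the fit. The 2 became 0 without EP4 antagonist B, C or D, without PGE2 A or B, and with no filter, and 1, Btg1, without EP4 antagonist A or PGE2 D. Ramp3 changed by -2.31 ± 0.41 under the EP2 antagonist (adjusted p = 0.00652, edgeR) and had an estimate of -0.33 ± 0.37 under the EP4 antagonist. Il1b changed by -2.12 ± 0.32 under the EP2 antagonist (adjusted p = 3.92e-06, edgeR), beside -0.64 ± 0.30 under the EP4 antagonist. Ehd1 changed by -0.60 ± 0.16 under the EP2 antagonist (adjusted p = 0.0459, edgeR), beside -0.03 ± 0.16 under the EP4 antagonist. Of the genes given here, Ramp3, Il1b and Cdkn1a were still among those called without EP2 antagonist D, PGE2 A or PGE2 B, and Ehd1, Btg1 and Arpp19 were not.

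Cdkn1a, the cell cycle inhibitor p21, changed by -0.71 ± 0.12 under the EP2 antagonist (adjusted p = 0.000147, edgeR), beside -0.34 ± 0.13 under the EP4 antagonist. Hmox1 passed in neither contrast, at -0.52 ± 0.35 under the EP2 antagonist and 1.00 ± 0.32 under the EP4 antagonist, so the difference called between the antagonists is made of an estimate below and an estimate above PGE2 alone. Btg1, an antiproliferative gene raised by PGE2, passed in both, at -1.21 ± 0.29 under the EP2 antagonist and -1.58 ± 0.34 under the EP4 antagonist (adjusted p = 0.0188 and 0.0252, edgeR). Arpp19, a phosphatase inhibitor of mitosis, passed in both as well, at 0.73 ± 0.16 and 0.80 ± 0.17 (adjusted p = 0.00947 and 0.0252, edgeR). Between the antagonists, Btg1 had 62.04, 60.7, 41.4 and 44.1 CPM in the EP2 antagonist libraries, against 71.6, 33.6, 44.2 and 33.2 CPM in the EP4 antagonist libraries, and the 95% interval of its log2 fold change, -0.35 to 1.09, includes 0.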

How the data were processed

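The authors deposited UMI counts per gene and library, made with the Drop-seq pipeline from 3' end libraries and annotated on GRCm38 with Ensembl release 75, per the labels' protocols. DESeq2 1.14.1 and GRCm38.p6 are named in the submitters' processing notes. The aligner is not given in the sources used here, nor is strand handling, so overlapping and antisense genes cannot be told apart. Of 23136 lines, 1 with a text entry was dropped, and 20 with symbols turned into dates (0.105% of counts) were named in no result.

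The 36 libraries at 4 h (9 groups of 4) were fitted together with edgeR 4.0.16 under R 4.3.3 (quasi-likelihood test, robust dispersion, TMM scaling, genes filtered by filterByExpr to 5754), with p-values adjusted by Benjamini-Hochberg over all genes at 0.05. CPM are relative to the counts of tested genes after TMM scaling, and intervals are 95%. Single-gene adjusted p-values are from the same fit. The functions were tested on simulated data.

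Genes were named by a rule: all called genes (some genes are not reported here), and of each list the called members and up to 3 others with the smallest p, with a fixed set of receptor, cDC1 and PGE2-response genes. PGE2-response genes without overlap, the redox genes and their promoters were picked with their values in view. The comparison, its members and all lists were chosen with earlier results of these data known. Leave-one-out fits, other scalings, filters, DESeq2 1.42.0 and limma 3.58.1 were tried as alternatives.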

Additional observations from a re-analysis of the deposited data

Results flagged for a closer look

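Of 133 groups of 4 libraries looked at, 12 held a library far from the other 3 of its group by Dixon's criterion, which chance gives in about 1 group in 20. Under the EP2 antagonist these were Map3k14 in library C (60.3 CPM, others 44.7 to 46.9), Xcr1 in A (277, others 137 to 151), Clec9a in C (75.3, others 16.5 to 25.6), Ifitm3 in A (1440, others 1070 to 1120), Ccl22 in C (166, others 190 to 195) and Ptger4 in C (26.4, others 8.27 to 9.59). Under the EP4 antagonist these were Map3k14 in A (143 CPM, others 98.6 to 105), Ftl1 in C (279, others 205 to 215), Itgae in A (405, others 292 to 299) and H2-DMb1 in A (787, others 964 to 994). Library A is the shallowest one and gave 3 of these 4. The PGE2 response score was 48.8% in library B of the EP3 antagonist and 55.4% in library B of the group given PGE2-deficient medium, away from the other 3 of each group.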

How the results depend on the processing

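The count of genes called between the antagonists, 1, was 0 with each of the 8 libraries left out in turn (range 0 to 0), with library totals in place of TMM, with DESeq2, without both shallow libraries (EP4 antagonist A, untreated A), and with the replicate letter as a block. Same-lettered libraries of the 2 antagonist groups correlated at -0.0131 to 0.0213 in their deviations from the group mean, and others at -0.0239 to 0.0354. Counting error in libraries this shallow can hide a shared deviation, so this cannot decide whether a letter marks a shared animal or culture. The count was 2 with no filter, 3 with limma voom, 9 with the 2 groups alone, 8 with 5 groups fitted, 5 without EP3 antagonist B and PGE2-deficient medium B, and 6 without these 2, EP4 antagonist A and untreated A. Hmox1 passed in 7 of 20 alternatives, with an adjusted p (edgeR, DESeq2 or limma) of 0.00113 to 0.476 and a log2 fold change of -1.62 to -1.40. The fits without EP3 antagonist B and PGE2-deficient medium B, alone or with the 2 shallow libraries, were not planned. Nor were those with 5 groups or without EP4 antagonist A and C. Hmox1 passed in all of these unplanned fits but the last. Of the planned ones it passed only with no filter, a mean of at least 20 CPM, limma voom and the 2 groups alone. Against PGE2 alone, the EP2 antagonist count of 24 ranged from 7 to 20 with 1 library left out, and was 82 with the 2 groups alone, 41 with 5 groups, 43 without EP3 antagonist B and PGE2-deficient medium B, and 49 without these and the 2 shallow libraries. The EP4 antagonist count of 2 ranged from 0 to 3 with 1 library left out, was 0 with no filter, 1 without both shallow libraries, and 1 without all 4 libraries. The medians of raised and lowered genes kept their signs in every alternative, from -0.22 to -0.15 and from 0.18 to 0.26. Genes without overlap ranged from 39 to 51 of the raised and from 21 to 30 of the lowered with 1 library left out, both highest without EP4 antagonist A. Over all genes tested the share rose as well with 1 library left out, from 1.62% to between 2.57% and 3.53% below. The share above rose from 1.82% to between 3.06% and 4.55%. Without EP4 antagonist A and C, which leaves 2 libraries, the raised and lowered counts were 67 and 41. The background was then 8.05% below and 8.17% above. The score difference, -17.89 points, ranged from -18.71 to -16.77 with 1 library left out and was -21.59 from summed CPM. Of 61 named genes, Ccl5 (0.1218), Ccl22 (0.0187) and Irf7 (0.0796) changed sign without EP4 antagonist A and C. The causes of these differences were not tested. Depth limits genes under the count floor of EP4 antagonist A, 71.56 CPM.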
